A study of Bos grunniens with 3 samples.

Results

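Mitotic cells of white yak skin were chosen by their own transcripts, as cells with at least 200 detected genes and at least 5 unique molecular identifiers (UMIs) of *TOP2A*, *CENPF* and *UBE2C* added together. The rule found 2541 such cells among 38551 in 3 single-cell libraries of *Bos grunniens*, namely 1233 of 11987 in anagen, 488 of 12062 in catagen and 820 of 14502 in telogen. The question put to them was which follicle and epidermal lineages they belong to, and how this differs between the stages of the hair cycle. Each library was labelled as skin, with hair follicle as its cell type, and came from scapular skin of Tianzhu white yaks, which was treated with dispase before the follicles were pulled out and dissociated with trypsin. No treatment or genotype sets the groups apart, and the growing (anagen), regressing (catagen) and resting (telogen) stage is the sole difference that the labels give. The yaks were about 2 years old per the labels. The study's methods cover anagen and catagen, for which they name 3 cows without saying which animal gave which library, and the animal and sex behind the telogen library are not given in the sources used here. The protocol text of the catagen library names anagen, whereas its title and its stage label name catagen, so every value given for catagen rests on those labels.

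A hair follicle is made of nested sheaths of keratinocytes that can be told apart by their keratins. The basal layer of the epidermis and the outer root sheath make KRT5, KRT14 and KRT15, suprabasal epidermal cells make KRT1 and KRT10, the inner root sheath makes KRT71, KRT25, KRT27 and KRT28, and the hair cortex makes KRT85 and KRT35. In a growing follicle the matrix at its base, where LEF1 and MSX2 are active, divides quickly and supplies the inner root sheath and the hair shaft. The basal layer divides at a slower pace throughout life, and differentiated suprabasal cells rarely divide. TOP2A untangles DNA before chromosomes separate, CENPF is a kinetochore protein of late cycle, and UBE2C is the ubiquitin-conjugating enzyme that works with the anaphase-promoting complex.

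The 3 libraries held 82862998 (anagen), 51647865 (catagen) and 103511775 (telogen) UMIs in all. The median mitotic cell held 7545, 6924 and 11769.5 UMIs, above the medians of 5114.5, 3259 and 5359.5 in the other cells of the same libraries. The smallest cell kept had 2404 UMIs in anagen and 500 in both catagen and telogen, so shallow cells entered the catagen and telogen counts only. There was 1 library per stage. No spread between animals can be given, no test between stages was possible, and every interval below is a 95% interval that covers counting error only. Among the cell barcodes kept, the libraries shared 43 (anagen and catagen), 40 (anagen and telogen) and 48 (catagen and telogen), and 1 of these belonged to a mitotic cell in both of its libraries.

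Mitotic cells made up 10.3% of anagen cells (exact Clopper-Pearson interval 9.75 to 10.8), 4.05% of catagen cells (3.70 to 4.41) and 5.65% of telogen cells (5.28 to 6.04). The share was 6.24 percentage points lower in the catagen than in the anagen library (difference -6.24, Newcombe interval -6.89 to -5.60) and 4.63 points lower in telogen than in anagen (difference -4.63, -5.30 to -3.97). Telogen lay above catagen by 1.61 points (1.09 to 2.12). When every cell was first thinned to 1500 UMIs and 2 UMIs of the trio were asked for, the shares were 9.74%, 4.54% and 5.44%, in the same order. Thinning left out 2263 catagen and 2932 telogen cells that were shallower than this, 33 and 17 of them mitotic, and no anagen cell.

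The values that chose the cells are given here as a description. *TOP2A* (ENSBGRG00000017633) stood at 892 CPM (UMIs of a gene per 1000000 UMIs of the set) in anagen, 1717 in catagen and 737 in telogen mitotic cells, against 16.5, 6.04 and 6.99 in the other cells. *CENPF* (ENSBGRG00000019358) had the most UMIs of the trio, a median of 9, 15 and 12 per mitotic cell, and was detected in 99.0%, 99.6% and 98.3% of them. *UBE2C* (ENSBGRG00000018402) was detected in 48.7%, 51.4% and 60.7%. Just inside the threshold, at 5 UMIs, lay 115 anagen, 27 catagen and 50 telogen cells, and just outside it, at 4 UMIs, lay 153, 42 and 72. *KIF11*, the motor that pushes spindle poles apart and no part of the rule, had 47.7, 25.4 and 35.3 CPM in the cells at 4 UMIs and 52.8, 57.6 and 26.5 CPM in those at 5, so the threshold cut through a continuous range in anagen and telogen.

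The label was checked against other genes of mitosis. Of 92 genes of kinases, spindle, kinetochore, chromosome structure and cytokinesis, 69 had a row by symbol. A gene was compared where it reached 10 CPM in either set of cells, and was counted as different from 2-fold on. In anagen 61 of 62 were at least 2-fold higher in mitotic than in other cells (median log2 ratio 4.05, against 0.27 over all 6096 genes, of which 10.6% were at least 2-fold higher). In catagen 63 of 65 were (median 5.14, against 0.41, background 19.5%), and in telogen 59 of 61 (median 4.32, against 0.16, background 6.68%). The rule had fixed this contrast, and nothing further is read from these counts. *KIF11* was at 166 CPM in anagen, 260 in catagen and 109 in telogen mitotic cells, against 5.30, 1.62 and 1.94 elsewhere. *CDC20*, the activator of the anaphase-promoting complex, was at 141, 151 and 136 CPM against 3.31, 0.755 and 1.85. *CENPE*, a kinetochore motor, was at 193, 594 and 175 CPM against 9.65, 12.3 and 11.0.

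Genes of DNA replication were also high, though less so than those of mitosis. Of 26 listed, 15 of 18 compared in anagen, 19 of 19 in catagen and 15 of 16 in telogen were at least 2-fold higher, where 10.6%, 19.5% and 6.68% of all genes were. *UHRF1*, which keeps DNA methylation through replication, was 5.03-, 11.4- and 8.94-fold higher, and *PCNA*, the clamp of the replication fork, 2.60-, 3.57- and 3.43-fold. At least 5 UMIs of *MCM2*, *MCM3*, *MCM5*, *MCM6*, *MCM7* and *PCNA* together were held by 31.5% of anagen, 24.4% of catagen and 39.3% of telogen mitotic cells. Cells that met this second rule and not the first (583, 206 and 433) are called replication cells below, and were set beside the mitotic cells after values had been seen.

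Among genes that inhibit the cycle, *CDKN1A*, the p21 inhibitor that p53 induces, was 2.88-, 2.89- and 2.58-fold lower in mitotic cells. *CDKN2C*, the p18 inhibitor of CDK4 and CDK6, was 4.25-, 4.85- and 5.20-fold higher. *KLF4*, a transcription factor of epidermal differentiation, was 2.06-, 2.87- and 1.84-fold lower. The inhibitor list as a whole had 10 members with a row, and its median log2 ratio was 0.15, 0.21 and -0.08.

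Suprabasal genes were low in mitotic cells at every stage. *KRT1* (ENSBGRG00000001328) stood at 1261 CPM in mitotic and 5150 in other anagen cells, at 642 and 4724 in catagen, and at 1835 and 6828 in telogen. This was 4.08-fold lower in anagen (log2 ratio -2.03, interval -2.05 to -2.01), 7.36-fold lower in catagen (-2.88, -2.94 to -2.82) and 3.72-fold lower in telogen (-1.90, -1.91 to -1.88). Of the 7 suprabasal genes with a row, 6 in anagen, 7 in catagen and 6 in telogen were at least 2-fold lower, where 6.25%, 8.20% and 2.59% of all genes compared were, and *DSG1*, a desmosomal cadherin, was the exception at 1.89- and 1.82-fold lower. Their median log2 ratios were -2.03, -2.30 and -1.43. *SBSN*, a secreted protein of the differentiating epidermis, was 4.50-, 6.69- and 2.70-fold lower.

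The *KRT1* that mitotic cells did hold sat in few of them. The 5% of mitotic cells with the most *KRT1* UMIs held 62.7% of them in anagen (62 cells), 90.7% in catagen (25 cells) and 71.4% in telogen (41 cells), where the same measure for *KIF11* gave 27.4%, 23.7% and 23.6%. After thinning, 3 or more *KRT1* UMIs were found in 247 of 1233 anagen mitotic cells, in 4.84% of catagen and in 14.1% of telogen mitotic cells (unthinned 38.0%, 8.40% and 37.4%). Cells marked by endothelial genes, which should lack *KRT1*, gave 13.8%, 0% and 15.2% (58, 14 and 33 cells, median depth of the marked cells 3896, 2411 and 4455 UMIs). The telogen share in mitotic cells was thus not above this background, and the anagen share (interval 17.8 to 22.4) and the catagen share lay within the intervals of the endothelial cells (6.15 to 25.4 and 0 to 23.2).

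Basal genes differed between the stages. *KRT14* was at 6434 CPM in mitotic and 11297 CPM in other anagen cells, at 3701 and 12397 in catagen, and at 20318 and 20281 in telogen. Its log2 ratio was -0.81 (-0.82 to -0.80) in anagen, -1.74 (-1.77 to -1.72) in catagen and 0.00 in telogen. *KRT15* (ENSBGRG00000012171) was at 164 against 316 CPM in anagen, 151 against 721 in catagen and 255 against 285 in telogen, which was 1.93-, 4.77- and 1.12-fold lower. Its telogen log2 ratio of -0.16 turned to 0.06 when cells were chosen after thinning, and to 0.03 with each cell weighted alike. *KRT5*, the partner of KRT14, had log2 ratios of -0.41, -0.91 and 0.24. Of the 9 genes of the basal list, 1 was above the other cells in anagen, 1 in catagen and 7 in telogen, the one in anagen and catagen being *TP63*, the transcription factor that keeps epithelial stratification (log2 ratios 0.36, 0.05 and -0.15). Measured against the median gene, which was itself 0.27, 0.41 and 0.16 higher on the log2 scale in mitotic cells, 1, 0 and 4 of the 9 were above. The list medians were -0.62, -0.91 and 0.08, and 1, 3 and 0 of its members were at least 2-fold lower, where 6.25%, 8.20% and 2.59% of all genes were, so that the anagen and telogen counts lie near the background.

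*KRT79* and *KRT17*, of the upper follicle list, were also lower in mitotic cells. In anagen 2 of the 3 list genes compared were at least 2-fold lower, where 6.25% of all genes were. The summed list, in which *KRT17* was the most abundant gene, had log2 ratios of -1.42, -2.62 and -0.60 in anagen, catagen and telogen. No values are given here for *GATA6* and *LRIG1*, its other members, so these ratios do not speak for them. *KRT79* (ENSBGRG00000001461), a keratin of the infundibulum and the sebaceous duct, was at 11.9 CPM in mitotic and 41.6 in other anagen cells, at 10.1 and 57.8 in catagen, and at 46.6 and 126 in telogen, or 3.49-, 5.74- and 2.70-fold lower. All *KRT79* UMIs of catagen mitotic cells lay in 9 cells, and 28 of the 39 in a single one. *KRT17*, found in outer sheath and upper follicle, was 2.69-, 6.21- and 1.51-fold lower, the telogen value being under 2-fold.

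*LHX2* (ENSBGRG00000017595), a transcription factor of follicle stem cells and early matrix, was among the genes that did not set mitotic cells apart. Its level was 72.1 CPM in mitotic against 74.0 in other anagen cells and 110 against 107 in catagen, with intervals of the log2 ratio that held 0 (-0.15 to 0.07 and -0.11 to 0.18), and against the median gene it was lower in both (-0.31 and -0.38). In telogen it was 62.5 against 47.5 CPM (log2 ratio 0.40, 0.29 to 0.50). The bulge-like list had a median log2 ratio of -0.83, -0.80 and 0.13. *SOX9*, a factor that keeps outer sheath and stem cells, was 2.72-, 4.61- and 1.52-fold lower, and *SPARC*, a secreted matrix-binding protein, had log2 ratios of -0.86, -0.80 and 0.21.

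Inner root sheath and cortex keratins gave a mixed picture. *KRT71* (ENSBGRG00000001131) was at 503 against 656 CPM in anagen, 493 against 690 in catagen and 403 against 342 in telogen, with log2 ratios of -0.38, -0.48 and 0.24. The telogen value rests on 1 mitotic cell, without which it was -0.82 (194 CPM). *KRT28*, an early inner root sheath keratin, was higher in the sums of mitotic cells at each stage (1.48-, 1.85- and 1.51-fold), whereas *KRT27* of the same sheath was lower (4.90-, 5.11- and 2.14-fold). In telogen 1 mitotic cell held 279 of the 1066 *KRT28* UMIs, and the fold without it was not calculated. *KRT85* (ENSBGRG00000000839) was at 786 against 977 CPM, 389 against 445 and 227 against 301, with log2 ratios of -0.31, -0.19 and -0.41. The directions for *KRT71* and *KRT85* changed when each cell was given the same weight, in place of summed UMIs, to log2 ratios of 0.09 (anagen) and -0.08 (telogen) for *KRT71* and 0.08, 0.64 and 0.05 for *KRT85*, and against other cells of like depth *KRT71* was higher in mitotic cells of anagen (1.02) and catagen (0.63). The keratins are a family of similar genes, and how reads shared between near copies were counted is not given in the sources used here.

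Among transcription factors of the hair matrix, *LEF1*, the nuclear partner of beta-catenin, was higher in mitotic cells at all 3 stages. It was at 63.5 against 21.5 CPM in anagen, 81.4 against 14.0 in catagen and 14.9 against 5.05 in telogen, or 2.95-, 5.80- and 2.96-fold. *MSX2*, a homeobox factor of the matrix, was 2.68-, 4.54- and 3.32-fold higher, although in telogen it reached 8.40 CPM and so fell under the 10 CPM asked of a gene to be counted. *HOXC13*, which drives hair keratin genes, had log2 ratios of 0.41 and 0.64 in anagen and catagen and -0.03 in telogen. The plot of log2 ratios shows the lineage genes together.

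**Figure D1:**
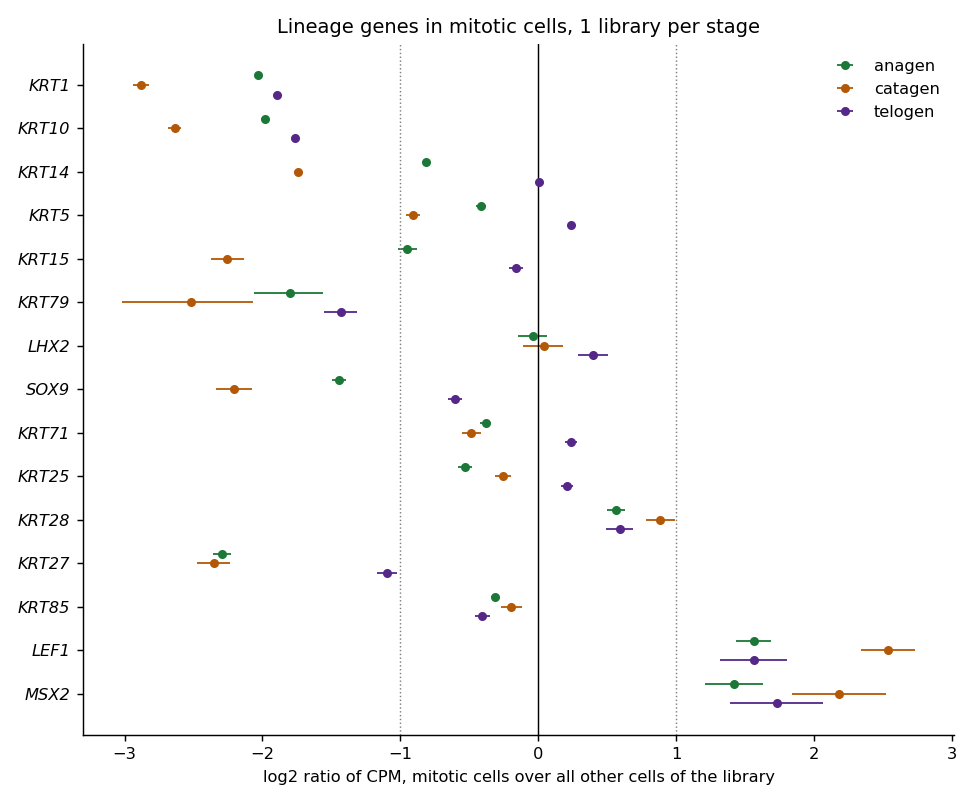
Log2 ratio of CPM in mitotic cells over all other cells of the same library (x axis) for 15 lineage genes (y axis), with anagen in green, catagen in orange and telogen in purple. Bars are 95% intervals for counting error, and dotted lines mark a 2-fold difference. *KRT1* and *KRT10* lie left of the 2-fold line in all 3 libraries and *LEF1* and *MSX2* right of it, while *KRT14* runs from -1.74 in catagen to 0.00 in telogen.

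Read cell by cell, the mitotic cells differed widely in basal transcripts. The UMIs of the 9 basal genes were added in each cell after thinning to 1500 UMIs, and a cell was said to carry the list from 5 UMIs on. This cut runs through a continuous range, with 44 anagen mitotic cells at 4 UMIs, 45 at 5 and 238 of 1233 at 3 to 7. In anagen the median mitotic cell held 5 UMIs of the list (quartiles 1 and 18), in catagen 2 (1 and 7) and in telogen 34 (13.5 and 54), against 14, 23 and 26 in other cells. In the histogram of these sums the catagen mitotic cells piled up in the lowest bin, and the telogen mitotic cells spread over the range of the other cells.

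**Figure D2:**
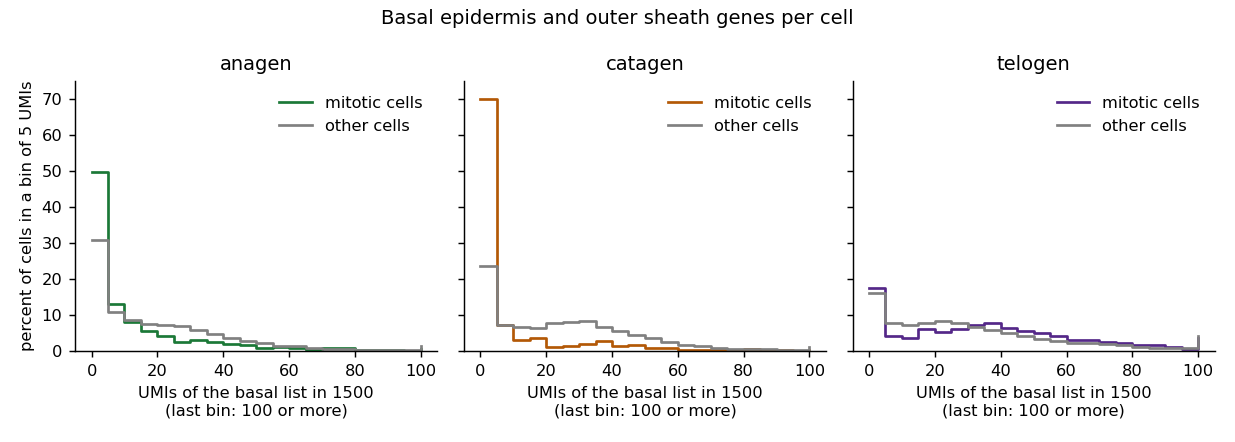
Percent of cells (y axis) by UMIs of the basal list in 1500 (x axis, bins of 5, the last bin holding 100 or more), 1 panel per library, with mitotic cells in colour and other cells in grey. The lowest bin holds 49.9% of anagen, 70.1% of catagen and 17.7% of telogen mitotic cells.

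The basal list was carried by 50.1% of anagen (47.3 to 53.0), 29.9% of catagen (25.7 to 34.3) and 82.3% of telogen mitotic cells (79.5 to 84.9), and before thinning by 86.3%, 69.1% and 98.2%. Among the other cells the shares were 69.2%, 76.4% and 83.9%. The catagen share of mitotic cells was 20.2 points below that of anagen (difference -20.2, -25.1 to -15.1), and the telogen share was 32.2 points above anagen (28.2 to 35.9) and 52.4 points above catagen (47.3 to 57.2). The stages thus lay further apart in mitotic than in other cells. Replication cells, which the rule left out, gave 56.1%, 35.6% and 85.9%, in the same order of stages.

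A background was read from the cells marked by endothelial genes, which should lack the list and carried it in 34.5% (22.5 to 48.1), 7.14% (0.181 to 33.9) and 39.4% (22.9 to 57.9). The catagen share is 1 of 14 cells. A single marked cell held 1114 of 2361 *KRT14* UMIs in anagen, 110 of 131 in catagen and 372 of 1683 in telogen. Whether this background is free RNA or cells of mixed content was not tested. A stricter cut at 20 UMIs of the list left 8.62%, 7.14% and 6.06% of those cells and 23.4%, 15.8% and 68.2% of the mitotic cells. Set against the endothelial cells of its own library at 5 UMIs, the mitotic share was 15.6 points higher in anagen (Newcombe interval 2.49 to 26.9), 22.7 in catagen (-1.91 to 30.1) and 42.9 in telogen (25.8 to 57.8), and at 20 UMIs 14.8 (4.54 to 20.3), 8.68 (-15.8 to 15.6) and 62.2 points (48.2 to 67.6). Telogen thus stood highest either way, whereas the order of anagen and catagen turned at 5 UMIs once the background was taken off, and the difference between those 2 stages cannot be told apart from one in this background.

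**Figure D3:**
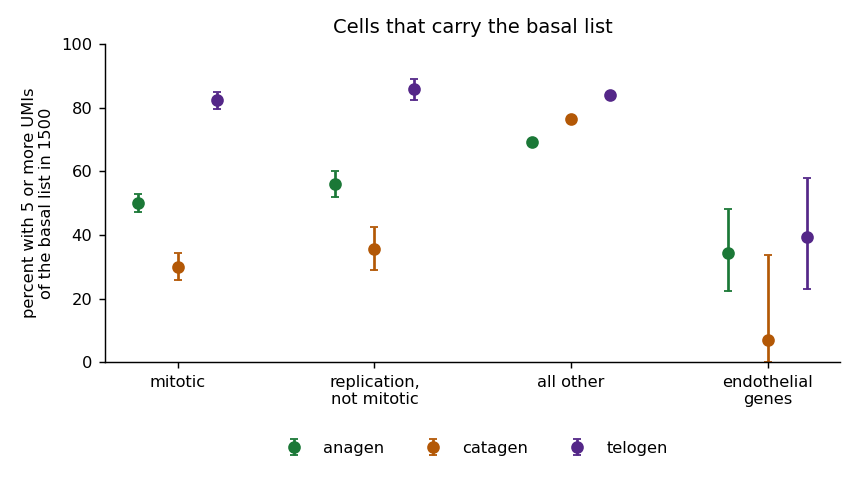
Percent of cells with 5 or more UMIs of the basal list in 1500 (y axis) among mitotic cells, replication cells that were not mitotic, all other cells and cells marked by endothelial genes (x axis), with 95% exact intervals. The mitotic cells run from 29.9% in catagen to 82.3% in telogen, while all other cells lie between 69.2% and 83.9%.

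Turned round, the lists show in which cells the mitotic rule was met more often. Among anagen cells that carried the basal list 7.66% were mitotic (7.09 to 8.27), and among those that did not 15.7% were (14.5 to 16.9). In catagen the shares were 1.87% (1.57 to 2.21) and 12.7% (11.4 to 14.0), and in telogen 6.82% (6.33 to 7.34) and 7.56% (6.40 to 8.85). The gap was widest in catagen, and in telogen the intervals overlapped. The lists were read after thinning but the mitotic rule on all UMIs, so a deeper cell meets the rule more easily. Mitotic cells without the list were deeper (median 10144 against 5484.5 UMIs in anagen, 7586 against 6438.5 in catagen and 13510.5 against 11579 in telogen). The part of depth in these shares, and in those of the lists below, was not tested. The telogen direction depended on the cut. At 20 UMIs of the list, 68.2% of mitotic and 60.7% of other telogen cells reached it, so carriers were there the more often mitotic. In anagen 23.4% of mitotic and 41.9% of other cells reached 20 UMIs, and in catagen 15.8% and 55.7%, the same direction as at 5 UMIs.

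At 5 UMIs of the list, carriers of the inner root sheath list were mitotic more often than the cells of their library with at least 1500 UMIs, of which 10.3%, 4.64% and 6.94% were. The share was 15.7% of 617 anagen carriers (12.9 to 18.8), 13.7% of 234 in catagen (9.55 to 18.8) and 22.2% of 135 in telogen (15.5 to 30.2). For the hair cortex and matrix list it was 16.8% of 638 (14.0 to 19.9), 12.6% of 175 (8.05 to 18.4) and 9.35% of 139 (5.07 to 15.5), and the telogen interval held the share of the library. The excess depended on the cut. At 10 UMIs of the inner root sheath list the shares were 11.2% of 340 carriers, 8.19% of 171 and 11.7% of 94, each with an interval that held the library share (lower bounds 8.03, 4.55 and 5.99). At 20 UMIs they were 6.15% (3.22 to 10.5), 2.61% (0.541 to 7.43) and 1.72% (0.0436 to 9.24), all under the library share, which again lay within the intervals. The cortex and matrix shares fell under that of the library in anagen and telogen already at 10 UMIs (7.95%, 7.21% and 4.44%). These carriers were few among the mitotic cells themselves. The inner root sheath list was carried by 7.87%, 7.03% and 3.74% of mitotic cells (unthinned 26.1%, 20.7% and 10.1%), and the cortex and matrix list by 8.68%, 4.84% and 1.62% (unthinned 28.6%, 18.9% and 8.29%). Among cells with endothelial genes 1 of 58, 0 of 14 and 0 of 33 carried either list, and those counts of 0 allow shares of up to 23.2% and 10.6%. The summed level in the endothelial cells was not always lower than in mitotic cells. In anagen they held 1504 CPM of *KRT71* and 6564 CPM of *KRT14*, above the 503 and 6434 CPM of the mitotic cells, with 523 of their 541 *KRT71* UMIs and 1114 of their 2361 *KRT14* UMIs in 1 cell each. *KRT25*, *KRT27*, *LHX2*, *SOX9* and *SPARC* in anagen, *KRT15* in catagen and *KRT1* and *SOX9* in telogen were likewise no higher in mitotic than in endothelial cells. A single endothelial cell held 210 of 220 UMIs of *KRT25*, 123 of 136 of *KRT27*, 16 of 29 of *LHX2* and 102 of 162 of *SOX9* in anagen, and all 14 of *KRT15* in catagen. The UMIs were more spread for *SPARC* in anagen (38 of 172 in the richest cell) and for *KRT1* (251 of 717) and *SOX9* (47 of 119) in telogen. *LEF1* had 1, 0 and 0 UMIs there.

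The other lists ran lower. Suprabasal carriers were mitotic in 6.39%, 1.17% and 3.78% of cases and upper follicle carriers in 5.60%, 0.853% and 5.23%, below the share of the library at each stage. The suprabasal list was carried by 33.7%, 10.1% and 29.9% of mitotic and 24.1%, 0% and 27.3% of endothelial cells. For the upper follicle list these were 23.8%, 4.40% and 27.8%, and 19.0%, 0% and 15.2%. Each of these mitotic shares lay within the interval of the endothelial cells. Bulge-like carriers were below the share of the library in anagen (4.73%) and catagen (1.88%) and above it in telogen (8.29%, 7.30 to 9.37). The telogen excess depended on the cut. It was gone at 10 UMIs of the list (6.45%, 4.89 to 8.31) and at 20 UMIs (5.22%, 2.13 to 10.5). Both lay under the library share of 6.94%, which was within the intervals. In telogen the bulge-like list was carried by 29.0% of mitotic cells (unthinned 81.5%), against 10.9% in anagen (unthinned 41.8%) and 10.1% in catagen (unthinned 31.8%), a difference of 18.1 points from anagen (14.6 to 21.8). Endothelial cells gave 6.90%, 0% and 3.03% in anagen, catagen and telogen. Many mitotic cells lay near the cut, with 235 of 1233, 54 of 455 and 297 of 803 at 3 to 7 UMIs of this list. The median carrier among mitotic cells held 7 UMIs at each stage, so these shares depend on the cut. All but 2 of the 233 telogen mitotic cells that carried the bulge-like list carried the basal list too. The companion layer list, of which *KRT75* alone had a row, was carried by 0.649%, 0.659% and 0.249% of mitotic cells (unthinned 1.87%, 1.84% and 5.85%).

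**Figure D4:**
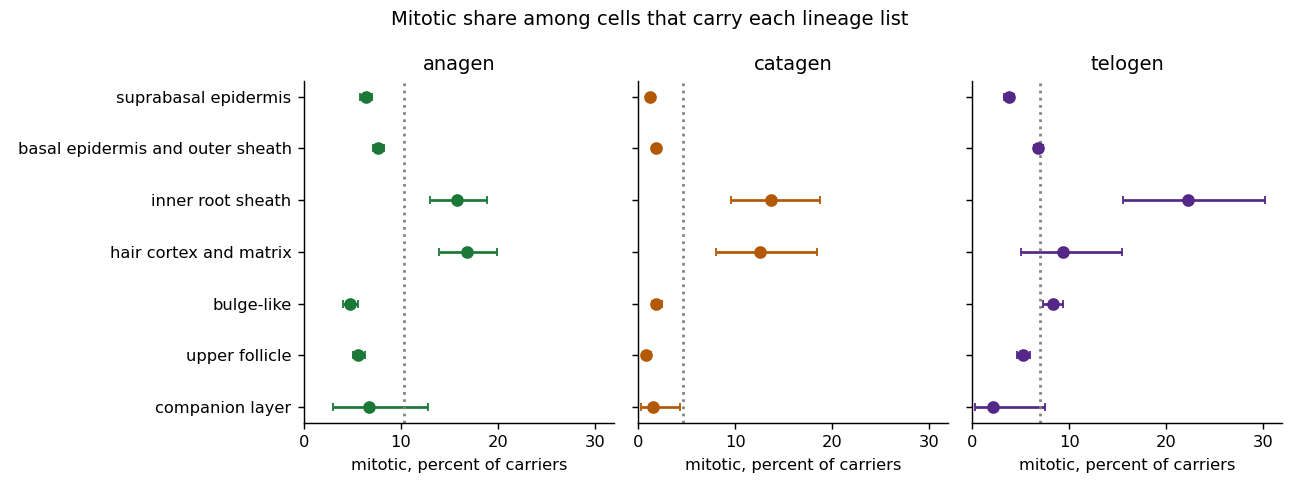
Mitotic cells as a percent of the cells that carry each lineage list (x axis), by list (y axis) and library (panels), with 95% exact intervals. Dotted lines mark the mitotic share of all cells with at least 1500 UMIs, 10.3%, 4.64% and 6.94%. Inner root sheath carriers lie to the right of the line in each panel and suprabasal carriers to the left.

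Lists of an inner and an outer lineage met in part of the mitotic cells. The inner root sheath and basal lists were found together in 26 of the 97 anagen mitotic cells that carried the former, in 1 of 32 in catagen and in 2 of 30 in telogen. The suprabasal list was found in 32, 4 and 3 of the same carriers. Of the cortex and matrix carriers, 43 of 107 in anagen, 1 of 22 in catagen and 5 of 13 in telogen carried the basal list. The inner root sheath and the cortex and matrix lists met in 0, 1 and 1 mitotic cells. No list at all was carried by 30.6% of anagen, 54.3% of catagen and 11.3% of telogen mitotic cells.

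Within the inner root sheath carriers, mitotic cells had less of every sheath keratin than carriers that were not mitotic, and the gap was widest for *KRT27*, apart from *KRT72*. *KRT27* was at 1202 against 13169.9 CPM in anagen, 977 against 17230.2 in catagen and 1702 against 12084 in telogen, or 11.0-, 17.6- and 7.10-fold lower. *KRT71* was 3.15-, 4.89- and 2.86-fold lower, *KRT25* 3.37-, 4.33- and 2.99-fold, and *KRT28* 1.62-, 2.06- and 2.62-fold. Over all telogen mitotic cells, the richest cell held 2818 of 5375 *KRT71* UMIs, and for *KRT25* the richest held 2516 of 4677. The telogen folds of these keratins thus depend on single cells, and their values without those cells were not calculated. *KRT72* of the sheath cuticle had 0 UMIs in anagen and telogen mitotic cells and 1 in catagen, too few for a ratio. Among cortex and matrix carriers *KRT85* was 2.36-, 4.04- and 1.93-fold lower in the mitotic ones, while *LEF1* (log2 ratios -0.36, -0.18 and -0.72) and *MSX2* (-0.12, 0.07 and -0.03) were closer to the other carriers. With 13 to 107 mitotic cells a set, these values rest on few cells.

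Mitotic cells without the basal list were then set against mitotic cells with it (615 and 618 cells in anagen, 319 and 136 in catagen, 142 and 661 in telogen). This split was made after values had been seen, and it uses the list it is drawn on, so the basal genes are no result of it. Cells without the list were deeper, with a median of 10144 against 5484.5 UMIs in anagen, 7586 against 6438.5 in catagen and 13510.5 against 11579 in telogen, and the part of depth in the split was not tested. *KRT71* was at 726 against 188 CPM in anagen, 638 against 105 in catagen and 1886 against 30.2 in telogen, or 3.86-, 6.09- and 62.4-fold higher without the list, the last being 29.1-fold without the single richest telogen cell. *KRT85* was 1.24-, 3.01- and 5.16-fold higher and *LEF1* 2.75-, 4.20- and 11.4-fold. In telogen 1 cell held 785 of the 1710 *KRT85* UMIs without the list, and the fold without that cell was not calculated. Of the inner root sheath genes compared, 4 of 5, 5 of 5 and 5 of 5 were at least 2-fold higher without the list, where 3.25%, 7.08% and 8.15% of all genes were. *LHX2* stood on both sides, at 60.9 against 87.8 CPM, 100.5 against 136 and 59.7 against 63.2.

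The inner root sheath transcripts of telogen sat in a handful of cells. The 41 mitotic cells with the most *KRT71* held 96.9% of its UMIs in telogen, and 1 cell alone had 2818 of 5375. In anagen the richest 62 cells held 68.2%, and in catagen the richest 25 held 81.6%. *KRT85* was spread likewise, with 58.8%, 60.4% and 91.1% in the richest 5% of mitotic cells. The summed CPM of these keratins in mitotic cells is therefore set by few cells, most of all in telogen.

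Of genes outside the basal list, with at least 50 CPM on the higher side in each library, 15 were taken in each direction by the smallest difference over the 3 libraries, again after values had been seen. They include the 3 sheath keratins *KRT71*, *KRT25* and *KRT28* and *LEF1*. Without the basal list the following were higher. *DLX3*, a homeobox factor of hair and matrix differentiation, was at 430 against 138 CPM in anagen, 357 against 91.2 in catagen and 333 against 30.8 in telogen. *FGF2*, a fibroblast growth factor, was 4.46-, 3.56- and 27.4-fold higher, *NRP2*, a co-receptor of semaphorins and VEGF, 2.97-, 3.20- and 12.6-fold, and *DPP4*, a cell surface peptidase, 3.32-, 3.26- and 10.5-fold. *DCN*, which encodes the proteoglycan decorin and is better known from dermal fibroblasts, was 2.51-, 3.73- and 5.64-fold higher, although the mesenchymal genes *COL1A2*, *COL3A1*, *LUM* and *PDGFRA* gave 29, 6 and 0 UMIs over all mitotic cells. *CTSH*, *ISG15*, *NT5DC2*, *PMP2*, *GOLGA7B* and *MYL6B* were the others, with *PMP2*, a fatty acid binding protein, reaching 46.8-fold in telogen.

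With the basal list, *POSTN*, the matricellular protein periostin, was at 945 CPM against 45.2 in cells without it in anagen, 791 against 13.9 in catagen and 939 against 26.9 in telogen. This was 20.9-, 56.8- and 34.9-fold higher. *SFRP1*, a secreted inhibitor of WNT signals, was 17.4-, 21.1- and 51.0-fold higher, *IL1R2*, the decoy receptor of interleukin 1, 19.1-, 38.7- and 28.0-fold, and *CD74*, the invariant chain of MHC class II, 17.0-, 28.1- and 8.60-fold. *SOX9* was 7.78-, 21.7- and 9.06-fold and *SPARC* 7.84-, 9.48- and 14.6-fold higher. *AQP3*, an aquaporin of basal keratinocytes, was 5.41-, 7.82- and 9.79-fold higher, and *EMP3*, *EHF*, *CRYAB*, *S100A4*, *LIMA1*, *GSN*, *FILIP1L* and *DDAH2* completed the set.

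Replication cells, which took no part in the choice of these 30 genes, were split by the same list. All 15 genes of each set had the same direction there in every library, with a median log2 ratio of 2.55, 2.68 and 3.33 for the first set and -2.78, -3.14 and -3.45 for the second. Cells that were neither mitotic nor replicating showed much of the same split, with the same direction for 15, 15 and 14 genes of the first set (median 1.78, 3.06 and 2.80) and 13, 15 and 13 of the second (-1.15, -1.40 and -0.76). The exceptions were *EHF* and *AQP3* in anagen and *DCN*, *EHF* and *CD74* in telogen. *KRT71* was 7.72-, 30.8- and 38.6-fold higher without the list in these cells too. Replication cells share their libraries and their free RNA with the mitotic cells, so this is the same tissue read again and not a repeat. Mitosis genes hardly followed the split in the mitotic cells, with a median log2 ratio of 0.16, -0.26 and 0.00 over the mitotic lists.

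**Figure D5:**
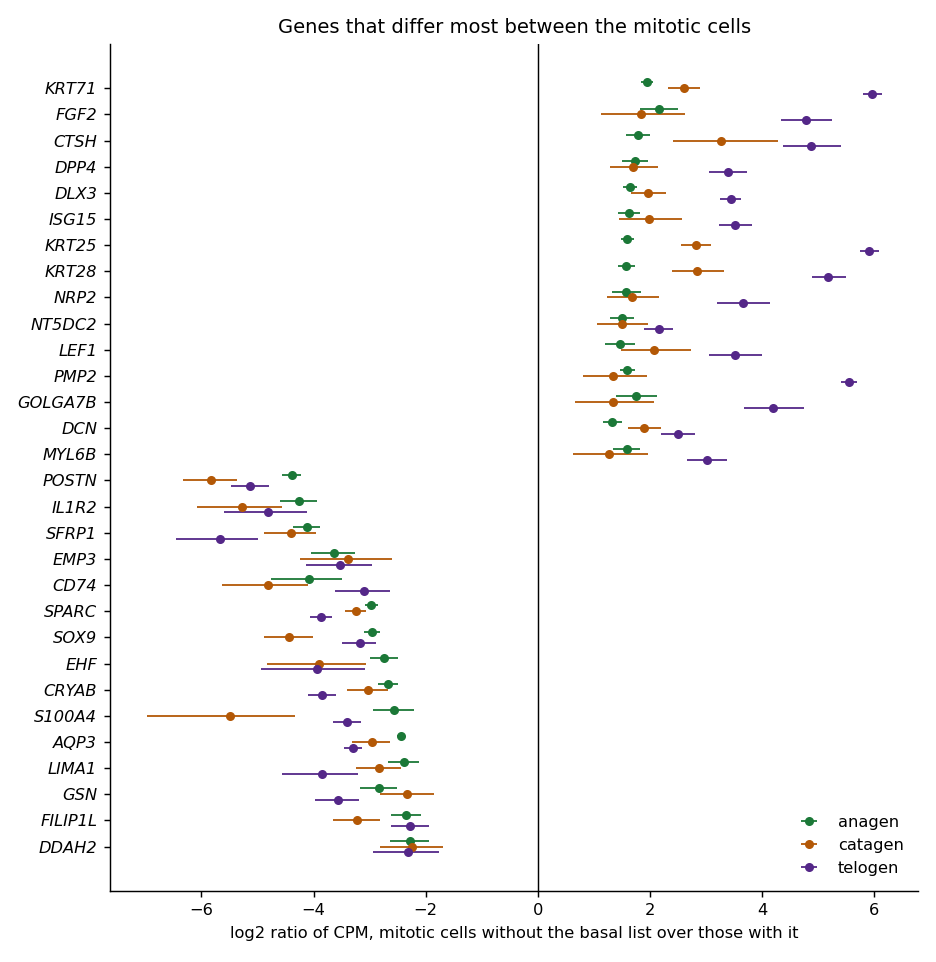
Log2 ratio of CPM in mitotic cells without the basal list over mitotic cells with it (x axis) for the 15 genes highest on either side (y axis), by library (anagen green, catagen orange, telogen purple), with 95% intervals for counting error. All points of a gene lie on 1 side of 0, and *KRT71* goes from 1.95 in anagen to 5.96 in telogen, or 4.86 without its single richest telogen cell.

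Genes outside all lists were named as the 12 highest and 12 lowest in mitotic over other cells by the smallest ratio of the 3 libraries, with at least 50 CPM on the higher side in each. Among the highest were histone genes, namely *H2AC12* (17.3-, 26.4- and 21.4-fold), *H2BC18*, *H2BC10*, *H1-2* and *H1-4*, a family of near copies whose values are uncertain for that reason. *DIAPH3*, a formin of the cytokinetic furrow, was 11.3-, 22.8- and 13.7-fold higher. *FBXO5*, an inhibitor of the anaphase-promoting complex, was at 64.7 against 6.97 CPM in anagen, 101 against 6.73 in catagen and 53.0 against 5.37 in telogen, and *MND1*, a recombination protein best known from meiosis, was 11.8-, 23.5- and 11.2-fold higher. *CENPM*, *HMGN2* and *PSRC1* were also among them.

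On the low side, *S100A7*, the antimicrobial protein psoriasin, was at 1101 against 4710 CPM in anagen, 37.2 against 203 in catagen and 775 against 3168 in telogen (4.28-, 5.47- and 4.09-fold lower). *SPINK5*, an inhibitor of skin proteases, was 4.78-, 7.03- and 3.04-fold lower, and *KLK7*, one of the proteases it inhibits, 4.90-, 13.9- and 2.86-fold. *AREG*, the EGF receptor ligand amphiregulin, was 4.06-, 5.38- and 3.38-fold lower, *CLDN4*, a tight junction claudin, 4.05-, 4.32- and 2.97-fold, and *ELOVL4*, which makes very long fatty acids of the skin barrier, 2.97-, 2.66- and 2.70-fold. *CCN2*, a YAP target, was 2.77-, 4.41- and 2.55-fold lower. *CCHCR1*, *LYPD5*, *POF1B*, *LY6G6C* and *FMO5* made up the 12.

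Set against each other, the mitotic cells of the stages differed in the 6 lineage genes as follows. From anagen to catagen *KRT1* was lower (log2 ratio -0.98, -1.04 to -0.91) while in the other cells it differed by -0.12, and *KRT15* was alike (-0.11, -0.25 to 0.02) while in the other cells it was 1.19 higher. *KRT85* was lower by about the same amount in both (-1.01 and -1.13), and *KRT71* differed little in the sums (-0.03 and 0.07), whereas *KRT25* of the same sheath was 1.08 higher in mitotic and 0.80 higher in other cells. *LHX2* was higher in both (0.61 and 0.53). *KRT79* differed by -0.24 in mitotic cells (-0.79 to 0.28) and by 0.47 in other cells. In mitotic cells 5.89% of the genes compared were at least 2-fold higher in catagen and 2.50% lower. Of 65 mitotic list genes compared, 8 were at least 2-fold higher in catagen, and 59 were above anagen (median 0.64, against 0.22 over all genes). The cells had been chosen by genes of this kind, so these counts are a description. Against that median gene *KRT71* was lower in catagen (-0.25), *KRT15* was lower (-0.33) and *LHX2* was still higher (0.39).

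From anagen to telogen *KRT14* was 1.66 higher on the log2 scale in mitotic cells (1.65 to 1.67) and 0.84 in other cells, and *KRT15* 0.64 higher in mitotic cells and -0.15 in other cells. *KRT79* was higher in both (1.97 and 1.60), and *KRT1* somewhat higher in both (0.54 and 0.41), although with each cell weighted alike *KRT1* was lower (-0.21). *KRT85* was lower in both (-1.79 and -1.70), as was *LEF1* (-2.09 and -2.09). *KRT71* differed by -0.32 in mitotic (-1.38 without the single richest telogen cell) and -0.94 in other cells. *LHX2* was lower in both (-0.21 and -0.64), although scaled by the median gene it was at 0.06 in mitotic cells. Of the 9 basal genes 5 were at least 2-fold higher in telogen mitotic cells, where 4.73% of all genes were, and of the 5 cortex and matrix genes compared all 5 were at least 2-fold lower, where 10.3% were. From catagen to telogen, *KRT14* was 2.46 higher (2.43 to 2.48) and *KRT15* 0.75 higher in mitotic cells, against 0.71 and -1.34 in other cells. *KRT79* was 2.21 and *KRT1* 1.52 higher in mitotic cells (1.12 and 0.53 in other cells). *LHX2* was at -0.81, *KRT85* at -0.78 and *KRT71* at -0.29 in mitotic cells (-1.35 for *KRT71* without its richest cell), against -1.17, -0.57 and -1.01 in other cells.

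The stage ratios were different again when mitotic cells with and without the basal list were taken apart. *SPARC*, which was 1.46 higher in telogen than in anagen over all mitotic cells, differed by 0.73 among those with the list and by -0.17 among those without it. *SOX9* differed by 0.11 over all mitotic cells, and by -0.64 with and -0.86 without the list. *KRT71* differed by -2.64 in the cells with the list and by 1.38 in those without it, or by 0.28 once the single richest telogen cell was left out, and from anagen to catagen it was lower in both parts (-0.85 and -0.19). From anagen to telogen *KRT1* was at 0.54 over all mitotic cells, 0.17 with the list and -0.38 without it (-0.46 to -0.30). Its values were -0.98, -0.25 and -1.49 from anagen to catagen, and 1.52, 0.41 and 1.11 from catagen to telogen. Among cells without the list 3 of the cortex and matrix genes were less than 2-fold lower in telogen than in anagen, with *KRT85* at -0.42, *LEF1* at -0.65 and *MSX2* at -0.15, in place of -1.79, -2.09 and -1.45. The *KRT85* value depends on 1 telogen cell, which held 785 of the 1710 *KRT85* UMIs of telogen cells without the list. The ratio without that cell was not calculated. *KRT14* and *KRT15* belong to the list that parts the cells, so their ratios within the parts are bound up with the split and nothing is read from them. *KRT14* was at -0.20 with and -0.83 without the list from anagen to catagen and at 0.77 and 0.27 from anagen to telogen, and *KRT15* at -0.23 and -0.09 from anagen to telogen. From catagen to telogen *KRT14* was at 0.97 and 1.10, against 2.46 over all mitotic cells. *KRT15* was at -0.65 and -0.42 (-1.02 to 0.17) there, against 0.75.

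Genes were also named for the widest gap between the stage ratio in mitotic and in other cells, 5 on each side. From anagen to catagen the widest were genes of mitosis (*DEPDC1*, *DLGAP5*, *CIT*, *NDC80* and *TOP2A*), higher in mitotic and lower in other cells, as with *DLGAP5* at 161 against 95.7 CPM in mitotic and 0.755 against 2.86 CPM in other cells. *TOP2A* is a gene of the rule and the others belong to the contrast that the rule fixed, so nothing is read from them about the stages. On the opposite side, *FST*, the activin inhibitor follistatin, was at 9.30 CPM in catagen and 60.1 in anagen mitotic cells (log2 ratio -2.69, and -1.10 in other cells). *CCL20*, a chemokine of keratinocytes, was at 32.8 and 174 CPM (-2.41, and -1.05), and *KLK7* (-2.56, and -1.05), *PMP2* (-1.82, and 0.09) and *CRYAB* (-0.79, and 0.84) were the others.

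From anagen to telogen *S100A4*, a calcium-binding protein, was at 434 CPM in telogen and 34.4 in anagen mitotic cells (3.66, and 2.28 in other cells). *KRT7* was at 72.5 and 16.1 CPM (2.17, and 0.26), *TIMP1*, an inhibitor of metalloproteases, at 378 and 123 (1.62, and 0.20), and *LAMA3*, a laminin chain of the basement membrane, at 81.9 and 20.1 (2.03, and 0.77). *PMP2* was at 383 and 231 CPM (0.73, and -0.82). Lower were *ID2*, an inhibitor of differentiation factors, at 67.6 and 218 CPM (-1.69, and -0.28), and *ID1*, a BMP target of the same family, at 521 and 1377 (-1.40, and -0.47). *FZD10*, a WNT receptor, was at 39.4 and 54.3 CPM (-0.46, and 0.42), and *EGLN3* and *SERPINB8* had log2 ratios of -0.22 and -0.43 in mitotic cells against 1.18 and 0.39 in other cells. Some of these directions did not hold in mitotic cells with the basal list, where *FZD10* was at 0.14 (-0.16 to 0.45), *EGLN3* at 0.35 (0.10 to 0.60) and *PMP2* at -1.49. *SERPINB8* was at -0.07 with the list (-0.30 to 0.15) and at -1.15 without it. Without the list *FZD10* was at 0.07 (-0.17 to 0.30), *EGLN3* at -0.02 and *PMP2* at 2.46. There *TIMP1* was at 0.02 (-0.22 to 0.27), *KRT7* at 0.66 (-0.57 to 1.82) and *LAMA3* at 0.37 (-0.97 to 1.60). With the list these were at 1.23, 1.35 and 1.18. *S100A4* (2.99 with and 2.16 without the list), *ID2* (-1.32 and -0.97) and *ID1* (-1.15 and -0.84) had the same direction in both parts.

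Apart from *TAGLN*, genes of other cell types gave few UMIs in mitotic cells, but they were not always lower there than in the other cells. The 4 endothelial genes *PECAM1*, *CDH5*, *VWF* and *EMCN* summed to 28 UMIs in anagen, 24 in catagen and 10 in telogen mitotic cells, *PECAM1* being the most abundant. The immune genes *PTPRC*, *CD52* and *LAPTM5* summed to 18, 0 and 12 UMIs, and those of melanocytes, led by *PMEL* and with *MLANA* at 0 in each library, to 35, 15 and 36. Immune genes were thus at 1.52, 0 and 0.900 CPM, against 0.817, 0.902 and 1.51 in the other cells. Melanocyte genes were at 2.96, 3.87 and 2.70 CPM, against 2.73, 17.9 and 3.35. The pericyte and muscle list reached 188, 272 and 285 CPM, which was almost wholly *TAGLN*, an actin-binding protein that keratinocytes can also make, with *RGS5* at 0 in catagen and telogen. In the other cells this list was at 179, 343 and 223 CPM. *ACTA2* was higher in mitotic than in other cells of each library (6.17, 6.72 and 3.83 CPM against 4.37, 2.43 and 1.79).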

How the data were processed

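Single-cell 10x Genomics libraries of anagen, catagen and telogen skin were analysed, 1 per stage. The authors deposited raw counts, as whole numbers of UMIs per gene and cell barcode without normalization. Reads had been aligned and counted with Cell Ranger (2.1.1 per the submitters' processing notes, but 4.0.0, 3.1.0 and 6.0.2 in the file headers of anagen, catagen and telogen), so a difference of version cannot be told apart from stage. The genome build is not given in the sources used here. The matrices have 26924 genes, 15765 of them with a symbol, and 162 of the 206 listed genes had a single row by symbol (*MKI67*, *CCNB1* and *KRT31* are among those without one, which were not analysed here).

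Cells with at least 200 genes were kept, which left out 13, 62 and 71. UMIs were summed over the cells of a set and given as CPM. Each ratio has an exact conditional (binomial) interval, each share a Clopper-Pearson and each difference of shares a Newcombe interval, all at 95%. With 1 sample per stage no p-value is given, and a gene counted as different from 2-fold on where it reached 10 CPM on either side. Shares of cells with a list (5 UMIs) were taken after thinning each cell to 1500 UMIs. Cells with at least 2 of 4 endothelial genes served as background. Doublets were left in, since Scrublet's own threshold called 0 cells in each library, and removal of the highest 5% of scores was an alternative. The intervals and ratios were tested on simulated data.

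The members, gene lists and naming rules were chosen with earlier results of these data known. The rules named 12 genes on each side of mitotic over other cells and 5 on each side of catagen and of telogen over anagen. One result that this rule gave is not reported here. The rule's contrast was described and not tested. Alternatives were thresholds of 3 and 8 UMIs, cell filters, thinning to 3000 UMIs or none, list cuts of 3 and 10 UMIs, other reference cells, other scalings and no filter on low values. Scrublet was run in scanpy 1.11.5, and the rest in scipy 1.17.1 and pandas 2.3.3 under Python 3.11.15. Promoter sequences were not used here.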

Additional observations from a re-analysis of the deposited data

How the results depend on the processing

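The stages have 1 library each, so no library could be left out and no paired analysis was possible because no group has a second sample. All 20 alternatives could be run, 3 of them chosen after seeing the data, as were the background subtraction and the removal of 1 telogen cell given with the results. The order of mitotic shares (anagen, telogen, catagen) was the same under each of the 8 alternatives that bear on it, and the order of basal carriers among mitotic cells (telogen, anagen, catagen) under each of the 15 that leave the endothelial background in. With it taken off, anagen and catagen changed places at 5 UMIs (15.6 and 22.7 points). Signs were checked for the 6 lineage genes alone. Of 366 alternative log2 ratios of the 6 lineage genes, 26 had another sign than the value reported, all of them for values under 2-fold.

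The values below lay outside the interval of the value reported. For mitotic cells as a percent of the anagen, catagen and telogen cells, a threshold of 3 UMIs gave 13.5, 4.98 and 6.70, one of 8 UMIs 7.95, 3.50 and 4.76, at least 1000 genes per cell 12.4, 7.70 and 8.51, and leaving out the 5% of cells with the most UMIs 9.31, 3.46 and 4.61. The thinned rule gave 9.74 and 4.54 in anagen and catagen, and cells no smaller than the smallest anagen cell 5.52 and 7.41 in catagen and telogen. For the percent of mitotic cells with the basal list, 3 UMIs of the list gave 60.2, 44.0 and 86.6, 10 UMIs 37.1, 22.6 and 78.1, no thinning 86.3, 69.1 and 98.2, 20 UMIs 23.4, 15.8 and 68.2, and replication cells in place of mitotic cells 56.1, 35.6 and 85.9 (the last 2 chosen after seeing the data). In anagen alone it moved to 46.3 (8 UMIs of the rule), 55.4 (thinned rule), 47.1 (1000 genes), 44.5 (thinning to 3000 UMIs) and 40.4 (cells with at least 5000 UMIs, chosen after seeing the data), and in catagen alone to 24.1 without the highest 5% of Scrublet scores. For the mitotic percent of inner root sheath carriers, anagen moved to 21.4 (3 UMIs of the rule), 12.5 (8 UMIs), 20.2 (1000 genes) and 24.4 (no thinning), catagen to 8.92 (without the 5% deepest cells) and 22.9 (no thinning), and 10 UMIs of the list gave 11.2, 8.19 and 11.7 and 20 UMIs (chosen after seeing the data) 6.15, 2.61 and 1.72, under the libraries' shares. The excess of these carriers thus ended at a stricter cut. The order of the stages for these carriers was not the same under 3 of the alternatives, and none is read from them.

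Scaling by the median gene lowered the log2 ratios of mitotic over other cells by 0.27, 0.41 and 0.16. Genes at least 2-fold higher and lower then numbered 412 and 589 in anagen, in place of 646 and 381, and 678 and 894 in catagen, in place of 1306 and 549. From anagen to catagen they numbered 194 and 269 in place of 380 and 161, and from anagen to telogen 450 and 331 in place of 285 and 622. Without the filter on low values they numbered 2699 and 4191 in anagen, 3531 and 5304 in catagen and 2099 and 3956 in telogen, the added genes all lying under 10 CPM on both sides. Without the 5% deepest cells, 566 genes in place of 374 were 2-fold higher in telogen mitotic cells. *KRT71* in telogen, at 0.24, moved to -0.81 with the thinned rule, and *KRT1* from anagen to telogen, at 0.54, to -0.65 without the 5% deepest cells. The cause was not tested.

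The telogen values for inner root sheath and cortex carriers rest on 30 and 13 mitotic cells, and the endothelial background of catagen on 14 cells.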
